A study of Drosophila melanogaster with 8 samples.

Results

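Of the 6731 genes measured in the heads of Canton-S flies, 167 had a transcript whose level went down at both temperature steps, from 18°C to 25°C and again from 25°C to 29°C. These genes were selected on the temperature differences themselves: on the scale log2(scaled coverage + 1), the mean at 18°C had to exceed the mean at 25°C by at least 0.4, the mean at 25°C had to exceed the mean at 29°C by at least 0.4, and every library at 29°C had to lie below every library at 18°C. Scaled coverage had to average at least 5, and where several transcripts of a gene met the rule, the one with the highest mean stood for it. In 7 members a more abundant transcript of the same gene did not meet the rule. The members make up 2.48% of the genes measured, and the mirrored rule, for levels going up at both steps, was met by 93 genes or 1.38%. All temperature differences of the members below are therefore descriptions of what chose them, and no test is attached to them.

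Wild-type flies of the Canton-S strain were entrained to light-dark cycles at 1 of 3 temperatures (18, 25 and 29°C), and polyA+ RNA of whole heads was sequenced; according to the methods, crosses were raised at 25°C and newly eclosed adults were moved to the other temperatures. There were 3 libraries at 18°C and 3 at 29°C, from zeitgeber times (hours after lights on) ZT3, ZT15 and ZT23, and 2 at 25°C, from ZT3 and ZT15. The labels give ZT23 for the last time point and the methods give ZT21, and the label is used here. With a single library for every combination, the different times of day had to serve as the replicates of a temperature, and their spread therefore includes changes over the day.

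The insect head is enclosed by a cuticle of chitin fibres and structural proteins, made by the epidermis, which continues to be thickened in layers after eclosion and is hardened and darkened by products of tyrosine and dopamine. The same aromatic and pteridine chemistry supplies dopamine to neurons, through an enzyme cofactor, and pigment to the eye. Beneath the cuticle lie the muscles that move the proboscis and antennae, the brain with its neurons and glia, the retina and the fat body, and whole-head RNA mixes all of them. In such bulk samples, fewer cells of a type and less RNA per cell cannot be told apart.

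The deposited coverage summed to between 92886 and 108550 in the 8 libraries, and 1435 to 1612 of the 18387 listed transcripts were at 0 in 7 of them. The library from 29°C at ZT15 stood apart, with 590 transcripts at 0 and a summed scaled value of 631 for midgut markers, against 0.145 to 0.978 in the others. All 15 photoreceptor markers of the head were measured. They summed to 15217 to 20065 at 18°C, 18876 and 20461 at 25°C, and 24430.5 to 29717 at 29°C. Every library at 29°C was thus above every one at 18°C, the reverse of the members. By gene, 6 of the 15 were higher at 18°C than at 29°C. Whether the photoreceptor content of the heads differed was not tested. Fat body markers, mostly yolk protein transcripts, summed to 50305 and 46430 at 25°C and to 12065 to 21815 in the other libraries. Across all 12577 transcripts at a mean of at least 5, the median difference was 0.17 (18°C minus 25°C), -0.11 (25°C minus 29°C) and 0.11 (18°C minus 29°C), so that a member's differences are to be read against these shifts.

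At 18°C the members took 3.64% ± 0.57 of the library (SD, n = 3). This share was 2.07% ± 0.070 at 25°C (SD, n = 2) and 1.21% ± 0.16 at 29°C (SD, n = 3), a ratio of 3.01 between the ends. Per library, their summed scaled coverage was 4.10%, 3.81% and 3.00% of the library at 18°C (ZT3, ZT15 and ZT23), 2.12% and 2.02% at 25°C (ZT3 and ZT15), and 1.04%, 1.35% and 1.25% at 29°C (ZT3, ZT15 and ZT23). The 3 temperatures did not overlap in this sum. Mean levels ranged from 5.17 to 6260 with a median of 24.8, and on the log2 scale the median step was 0.71 (18°C minus 25°C) and then 0.60 (25°C minus 29°C). From 18°C to 29°C the difference had a median of 1.37, and it ran from 0.83 for Gs1l to 4.73 for CG7214. In 149 members the level at 18°C exceeded that at 29°C by at least 1 on the log2 scale, in 37 by at least 2 and in 8 by at least 3.

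**Figure D1:**
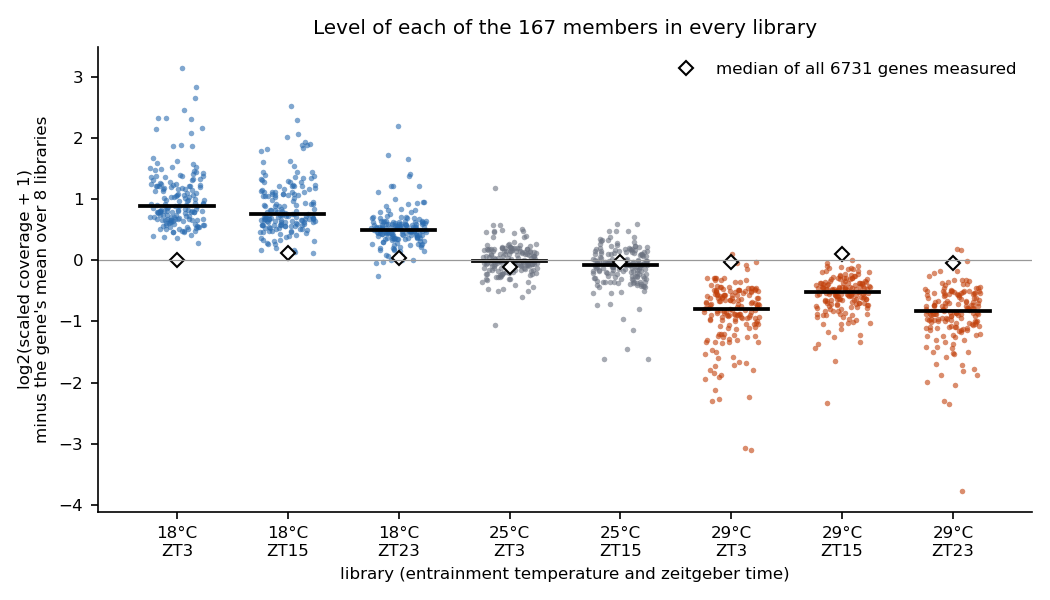
Level of the 167 members in each of the 8 libraries, as log2(scaled coverage + 1) minus the gene's own mean over the libraries. Each point is 1 gene, black bars are the medians of the members and diamonds the medians of all 6731 genes measured; the member medians run from 0.89 in the library from 18°C at ZT3 to -0.83 in the one from 29°C at ZT23, while those of all genes stay between -0.10 and 0.11.

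The step down was shared unevenly between the cold and the warm interval. It was larger from 18°C to 25°C in 107 members and larger from 25°C to 29°C in 60. Which interval had the larger step depended on the scaling. Member medians were 0.47 and then 0.64 with 75th percentile scaling, and 0.55 and then 0.71 after quantile normalization, the reverse order. The first interval spans 7 degrees and the second 4. The difference per degree was larger in the warm interval for 132 members, with a median of 0.15 against 0.10 in the cold interval. The rule asked for the same minimum step in both intervals, and so for more per degree in the warm one. The lowest difference per degree among members was 0.10 in the warm interval and 0.057 in the cold one. The larger values per degree in the warm interval are thus partly set by the rule, and they do not show a steeper response above 25°C. In 16 members both steps were at least 1. In 150 members every library at 18°C lay above both at 25°C (40.4% of all transcripts), in 129 both at 25°C lay above every one at 29°C (14.1%), and 120 members had no overlap at either step (5.3%). At matched time points the order 18°C, 25°C, 29°C held in 164 members at ZT3 (25.2% of all transcripts) and in 149 at ZT15 (25.3%). As the steps that chose the members come from the same libraries, these counts only describe the set.

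**Figure D2:**
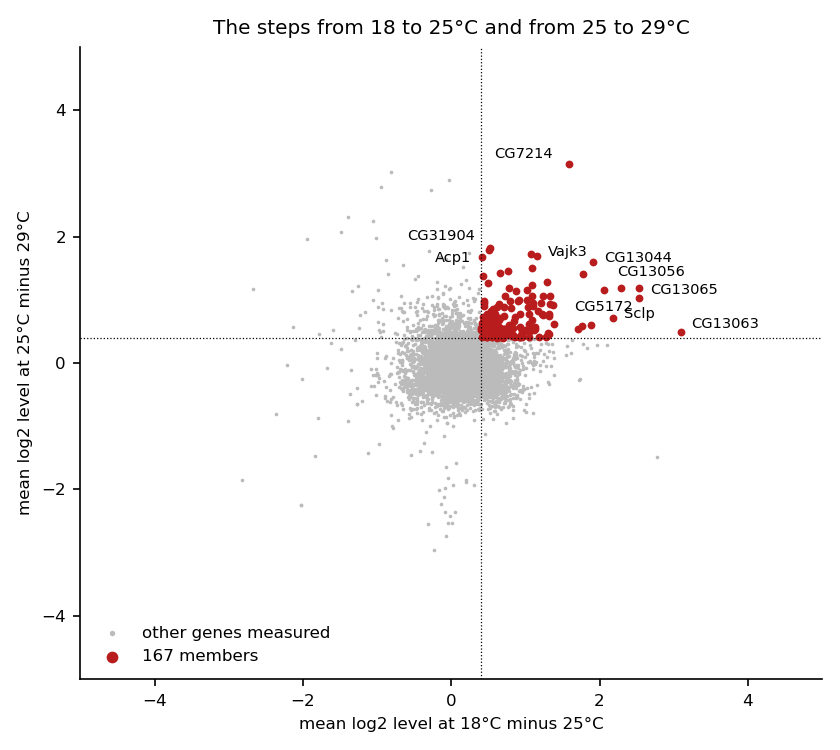
Difference between 18°C and 25°C (x axis) against difference between 25°C and 29°C (y axis), both as means of log2(scaled coverage + 1), for all 6731 genes measured. Members are red and lie above and to the right of the dotted thresholds of 0.4; CG13063 has the largest cold step (3.09) and CG7214 the largest warm step (3.14).

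Many members sit just past the threshold, and for 67 the smaller of the 2 steps was between 0.40 and 0.50. The 3 closest inside were CG14770, Cht2 and Zasp66, whose smaller steps were 0.402, 0.403 and 0.403. Just outside lay CG1632 (0.39995), lute (0.398) and Mlp84B (0.397), the last a muscle LIM protein of the Z-disc. Mlp84B had scaled values of 225, 267 and 234 at 18°C, 171 and 193 at 25°C, and 128, 140 and 146 at 29°C (here and below in the order ZT3, ZT15 and ZT23). Its 3 temperatures did not overlap.

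Structural proteins of the cuticle contributed more members than any other list examined. Of 34 measured cuticle genes (Cpr and related families), 16 were members, 32 had a higher mean at 18°C than at 29°C, and the median difference was 1.27. Over all genes measured, 3700 of 6731 were higher at 18°C and the median was 0.05. CG7214, a small cuticle protein encoded next to Acp1, had scaled values of 1281, 1047 and 1191 at 18°C, 385 and 389.7 at 25°C, and 30.1, 50.7 and 51.8 at 29°C. The mean at 18°C was 26.5 times that at 29°C, the largest log2 difference of all members (1.59 and then 3.14), and the 3 temperatures were far apart.

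Acp1, an abundant cuticle protein of the adult, was at 2100, 2060 and 1349 at 18°C, 1268 and 1256 at 25°C, and 235, 492 and 418 at 29°C. Its neighbour CG31904 was at 1131, 1037 and 739 at 18°C, 667 and 660.0 at 25°C, and 125, 259 and 206 at 29°C. Both stepped down mainly in the warm interval, by 1.79 and 1.81 on the log2 scale, after cold steps of 0.51 and 0.52. CG7214, Acp1, CG31904 and CG13796 occupy 4 consecutive positions on chromosome arm 2L in the RefSeq gene order, and CG13796 was much lower, at 15.7, 15.8 and 6.94 at 18°C, 5.89 and 4.60 at 25°C, and 4.07, 5.37 and 1.52 at 29°C.

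Vajk3 and Vajk2, cuticle proteins with a repeated sequence motif that lie side by side on 2L, went down together. Vajk3 was at 457, 569 and 229.9 at 18°C, 165 and 185 at 25°C, and 30.1, 73.8 and 67.6 at 29°C. The values of Vajk2 were 451, 537 and 243 at 18°C, 173 and 197 at 25°C, and 35.1, 76.1 and 62.4 at 29°C. In both, the library from 18°C at ZT23 was well below the other 2 at 18°C, and the one from 29°C at ZT3 was the lowest of all. Crys, which encodes drosocrystallin, the protein of the corneal lens, was at 149, 117 and 91.8 at 18°C, 51.1 and 43.7 at 25°C, and 13.7, 19.4 and 25.4 at 29°C, a difference of 2.57 between the ends.

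Proteins with the chitin-binding Rebers-Riddiford domain supplied most other cuticle members. Cpr100A was the most abundant of them, at 599, 468 and 329 at 18°C, 224 and 165 at 25°C, and 86.0, 109 and 80.6 at 29°C. Neighbouring pairs on 3L and 3R behaved alike: Cpr62Bc and Cpr62Bb differed by 2.15 and 1.91 between 18°C and 29°C, and Cpr97Ea and Cpr97Eb by 2.28 and 1.60. Cpr62Bc was at 182, 207 and 88.4 at 18°C, 64.2 and 75.9 at 25°C, and 21.2, 46.9 and 36.0 at 29°C. The remaining members of this kind (Cpr47Ef, Cpr50Cb, Cpr64Aa, Cpr76Bc, Ccp84Ab and Ccp84Ag) were low, with means of 5.72 to 17.2, and differed by 1.26 to 2.59. Cuticle genes outside the set included retinin, a protein of the corneal surface with a mean of 4469 and differences of -0.10 and 0.32, and CG7203, whose level was lower at 18°C than at 25°C by 0.33 and higher at 25°C than at 29°C by 1.04.

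Genes for making and remodelling chitin behaved like the cuticle proteins but with less uniformity. Of 24 measured, 8 were members and 17 were higher at 18°C than at 29°C, with a median of 0.94. Gasp, a secreted chitin-binding protein, was at 193, 199 and 124 at 18°C, 81.2 and 78.0 at 25°C, and 42.4, 65.3 and 56.8 at 29°C. Other chitin-binding members were obst-A (1.99 between 18°C and 29°C), obst-B (2.39) and Peritrophin-A (1.78), of which obst-A and Peritrophin-A are neighbours on X. The chitin deacetylases serp and Cda4 differed by 1.68 and 2.00, and the chitinases Cht2 and Cht7 by 1.10 and 1.71. The paralogue of serp, verm, and the chitin synthase kkv had cold steps of 1.62 and 1.56 but warm steps of 0.37 and 0.27, below the threshold. The Idgf genes, secreted relatives of chitinases that have lost enzymatic activity, had cold steps of -0.30 to -0.68 and so behaved differently.

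**Figure D3:**
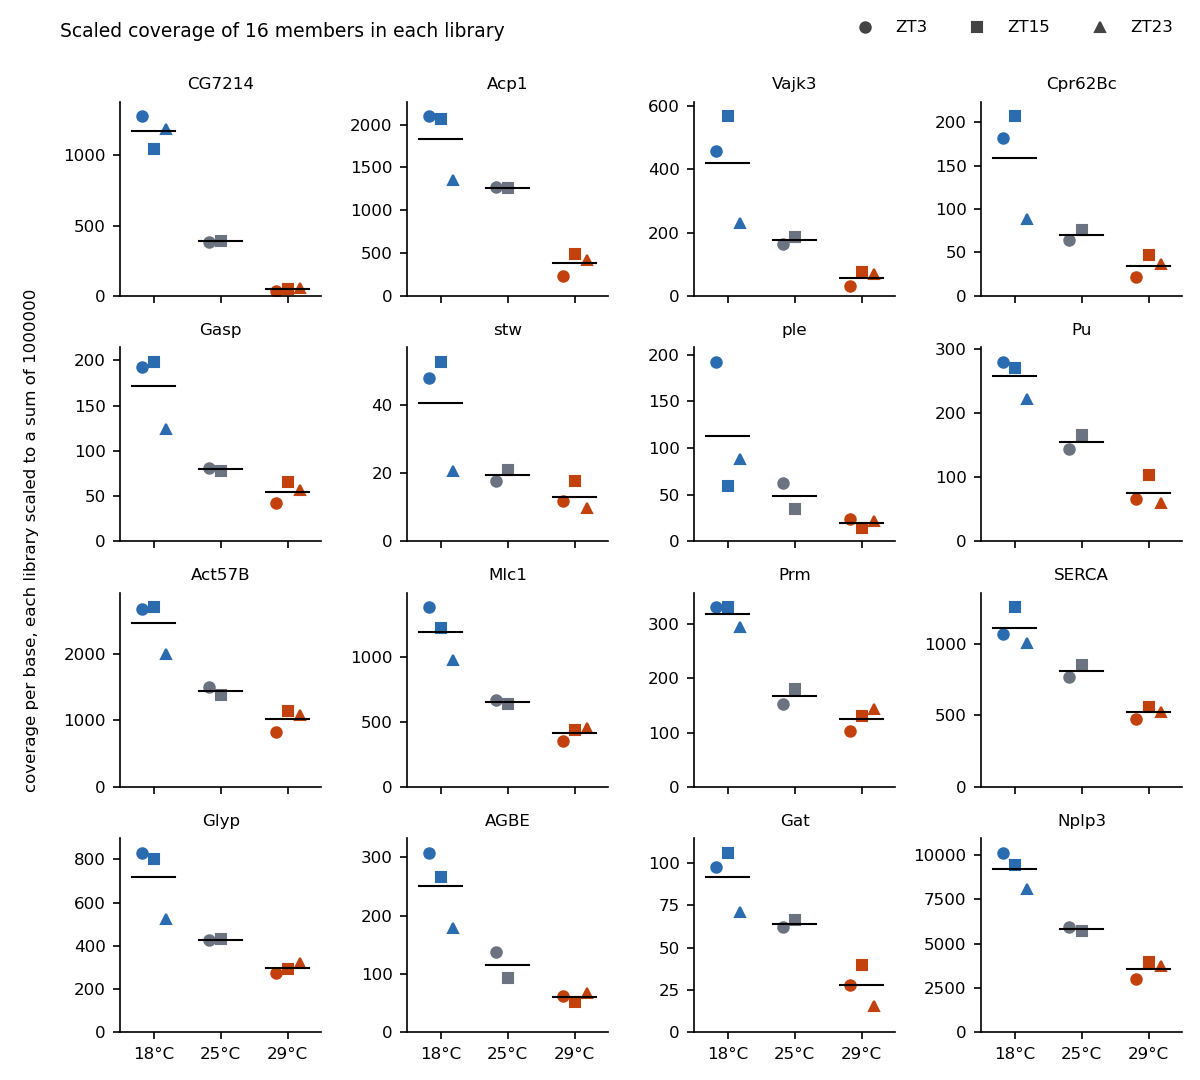
Scaled coverage of 16 members in each library, on linear axes from 0. Circles, squares and triangles are ZT3, ZT15 and ZT23, and bars are the means of each temperature; in all 16, every point at 29°C lies below every point at 18°C, as the rule required.

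Several transcripts of unknown role shared the largest differences. CG13065, CG13063, CG13056 and CG13044 lie on 3L, and CG13044 and CG13063 are in 1 run of neighbours with Nplp3. CG13044 was at 205, 322 and 112 at 18°C, 47.0 and 55.1 at 25°C, and 5.59, 31.4 and 22.9 at 29°C. CG13065 had values of 74.2, 49.2 and 29.9 at 18°C, 7.42 and 7.4 at 25°C, and 1.55, 5.05 and 2.24 at 29°C. Most of the change in CG13065, CG13063 and CG13056 came in the cold step (2.54, 3.09 and 2.29), and their levels at 29°C were between 1.05 and 9.09. CG5172 on X, by its mean the fourth most abundant member, was at 3095, 2569 and 1499 at 18°C, 562 and 536 at 25°C, and 193, 446 and 173 at 29°C. CG8736 on 2R was at 1484, 1389 and 819 at 18°C, 644 and 533 at 25°C, and 185, 351 and 273 at 29°C. The 3 temperatures were apart in both. Sclp and CG17754 on X differed by 2.89 and 2.35 between 18°C and 29°C, mainly through cold steps of 2.19 and 1.76. CG14118 had the highest ratio of means, 83.6, but at 29°C it was between 0.0535 and 0.345, where the ratio is poorly determined, and its log2 difference with the pseudocount was 3.56.

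Nplp3 (CG13061), annotated as a neuropeptide-like precursor, was the most abundant member. Its values were 10135, 9461 and 8080 at 18°C, 5937 and 5714 at 25°C, and 2996, 3992 and 3763 at 29°C. It alone made up 24.7% to 30.2% of the members' summed coverage, and the temperatures did not overlap. Without Nplp3 the sum was 30839, 28615 and 21960 at 18°C, 15252 and 14490 at 25°C, and 7378, 9469 and 8692 at 29°C. As every member was chosen to go down at both steps, the fall of this sum is no separate result.

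Enzymes that turn tyrosine into cuticle pigment and dopamine were a further group of members. Of 14 measured genes of catecholamine synthesis and tanning, a list drawn up after member values had been seen, 7 were members and 12 were higher at 18°C than at 29°C, with a median of 0.89. ple, the tyrosine hydroxylase that starts catecholamine synthesis, was at 193, 59.3 and 88.0 at 18°C, 62.4 and 35.0 at 25°C, and 24.0, 13.7 and 21.4 at 29°C. Its library from 18°C at ZT3 was more than 2 times the other libraries at that temperature. The one from 18°C at ZT15 lay below that from 25°C at ZT3. Ddc, the decarboxylase that makes dopamine from dopa, was at 79.0, 78.5 and 79.5 at 18°C, 54.2 and 51.3 at 25°C, and 40.5, 37.8 and 34.5 at 29°C. The Ddc libraries of each temperature were within a narrow range and the temperatures did not overlap.

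stw encodes laccase 2, which oxidises catechols to the quinones that cross-link cuticle proteins, and was at 48.1, 52.8 and 20.7 at 18°C, 17.8 and 20.96 at 25°C, and 11.8, 17.7 and 9.64 at 29°C. Its level at 18°C was far lower at ZT23 than at the other times, and was then nearly equal to the library from 25°C at ZT15. The yellow relatives yellow-c, yellow-e and yellow-d2, secreted proteins of a family with roles in pigmentation, differed by 1.16, 2.08 and 2.27 between 18°C and 29°C. The genes of beta-alanyl dopamine metabolism were not members: e, which joins beta-alanine to dopamine, had steps of 0.44 and 0.25, b, which makes beta-alanine, steps of 0.45 and 0.27, and t, which reverses the reaction of e, steps of 0.08 and -0.32. Of the 98 measured synaptic and neuronal genes, ple and Ddc were the 2 members (2.04%, near the 2.48% of all genes).

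Pu, the GTP cyclohydrolase that opens pteridine synthesis and so supplies the cofactor of tyrosine hydroxylase as well as eye pigments, was at 281, 271 and 223 at 18°C, 144 and 166 at 25°C, and 65.5, 103 and 59.3 at 29°C. The next enzyme, encoded by pr, was at 209, 206 and 156 at 18°C, 114 and 117 at 25°C, and 72.0, 83.5 and 82.1 at 29°C. The values of se, sepia, which makes the precursor of the red drosopterins, were 220.4, 171 and 153 at 18°C, 123 and 96.3 at 25°C, and 72.7, 77.6 and 77.4 at 29°C. All 3 had separate temperatures, with differences of 1.79, 1.25 and 1.23. They were 3 of 7 measured pteridine genes (list drawn up after values were seen), with a list median of 0.73, and the other 15 measured genes of the wider eye pigment list held no member. KFase, the kynurenine formamidase of the ommochrome branch, differed by 0.93. Exons of pr, se and KFase overlap those of bwa, GstO2 and Daxx on the other strand in the BDGP6 annotation, and the use of strand in the coverage is not stated.

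Breakdown of tyrosine was represented by its second and last enzymes. Hpd, the 4-hydroxyphenylpyruvate dioxygenase, was at 307, 214 and 277 at 18°C, 209 and 137 at 25°C, and 146, 65.6 and 199.8 at 29°C. It was lower at ZT15 than at the other times at every temperature, and its library from 29°C at ZT23 came close to the lowest at 18°C. Faa, fumarylacetoacetase, was at 54.7, 50.2 and 47.4 at 18°C, 30.1 and 28.3 at 25°C, and 21.6, 17.3 and 18.1 at 29°C, with no overlap between temperatures. The other 4 measured genes of the pathway had differences of -0.21 to 0.59 between 18°C and 29°C. Oat, ornithine aminotransferase, and Aldh7A1, an aldehyde dehydrogenase of lysine breakdown, were members with differences of 1.37 and 1.39.

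Most muscle transcripts were higher at 18°C than at 29°C, although few passed both thresholds. Of 29 measured muscle entries (Strn-Mlck stands under 2 identifiers), 5 were members and 27 were higher at 18°C than at 29°C, with a median of 0.81. Summed over the list, scaled coverage was 14052, 12941 and 12038 at 18°C, 8018 and 8000 at 25°C, and 5550, 6538 and 6791 at 29°C. The 13 measured muscle markers, which share most of these genes, were higher at 18°C in 12 cases with a median of 0.92, and whether the muscle content of the heads differed was not tested. The count of 5 was 2 without the library from 29°C at ZT3, 8 without that from 29°C at ZT23, and 3 after quantile normalization.

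Act57B, a muscle actin, was the second most abundant member, at 2676, 2706 and 2007 at 18°C, 1496 and 1377 at 25°C, and 829, 1140 and 1085 at 29°C. Mlc1, the alkali light chain of myosin, was at 1386, 1226 and 977 at 18°C, 673 and 641 at 25°C, and 355, 437 and 452 at 29°C. TpnC25D, a troponin C that binds calcium in the thin filament, was at 1141, 1010 and 977 at 18°C, 756 and 582 at 25°C, and 372, 417 and 453 at 29°C. In all 3 the temperatures did not overlap, although at some temperatures the libraries spread over more than the gap to the next temperature. Coding sequences of the actin genes are alike, and how reads shared between them were placed is not stated.

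Prm, paramyosin of the thick filament, was at 331, 331 and 294 at 18°C, 153 and 181 at 25°C, and 103, 131 and 143 at 29°C. Zasp66, a Z-disc protein, was at 449, 284 and 367 at 18°C, 246 and 223 at 25°C, and 174, 174 and 183 at 29°C. For both, the warm step was near the threshold (0.41 and 0.40), whereas Mhc, the myosin heavy chain, had steps of 0.71 and 0.21 and Mlc2 steps of 1.06 and 0.37. SERCA, the pump that returns calcium to the sarcoplasmic reticulum, was at 1065, 1255 and 1002 at 18°C, 766 and 852 at 25°C, and 475, 558 and 524 at 29°C, and 7 other listed SERCA transcripts had differences of 1.07 to 1.12. how, an RNA-binding protein of the STAR family needed in muscle and tendon, differed by 1.06. It was the only member among 31 measured splicing factors (3.23%, near the 2.48% of all genes).

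Glial transporters were a smaller group whose membership depended on the scaling. Of 11 measured genes, again listed after values were seen, 5 were members, and all 11 were higher at 18°C than at 29°C with a median of 0.78 (10 of 11 after 75th percentile scaling or quantile normalization). The count was 1 with scaling to the 75th percentile, 2 after quantile normalization and 3 without the library from 29°C at ZT23. Gat, which takes up GABA into astrocyte-like glia, was at 97.9, 106 and 71.0 at 18°C, 62.0 and 66.2 at 25°C, and 28.0, 40.0 and 15.4 at 29°C. The transporter of glutamate, Eaat1, was at 205, 225 and 190.1 at 18°C, 123 and 154 at 25°C, and 101, 117 and 85.5 at 29°C. nrv2, a beta subunit of the sodium-potassium pump used in glia, was at 338, 311 and 312 at 18°C, 229 and 218 at 25°C, and 155, 149 and 162 at 29°C.

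The temperatures were separate in Gat, Eaat1 and nrv2, with differences of 1.76, 1.03 and 1.04. The sugar cotransporter relative rumpel and the beta-alanine transporter Balat differed by 1.42 and 1.21. Of 12 measured glial markers, which include Gat, Eaat1 and nrv2, 11 were higher at 18°C, with a median of 0.71 and summed coverage of 2096 to 2128 at 18°C, 1653 and 1684 at 25°C and 1164 to 1247 at 29°C. The glial transcription factor repo had steps of 0.21 and 0.10, and wrapper steps of -0.11 and 0.06, and the part of glial content in these differences was not tested. Neuron markers held no member among 11, with a median of 0.21, and photoreceptor markers none among 15, with a median of -0.14. For lists of these sizes 0 is not far from the 2.48% of all genes.

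**Figure D4:**
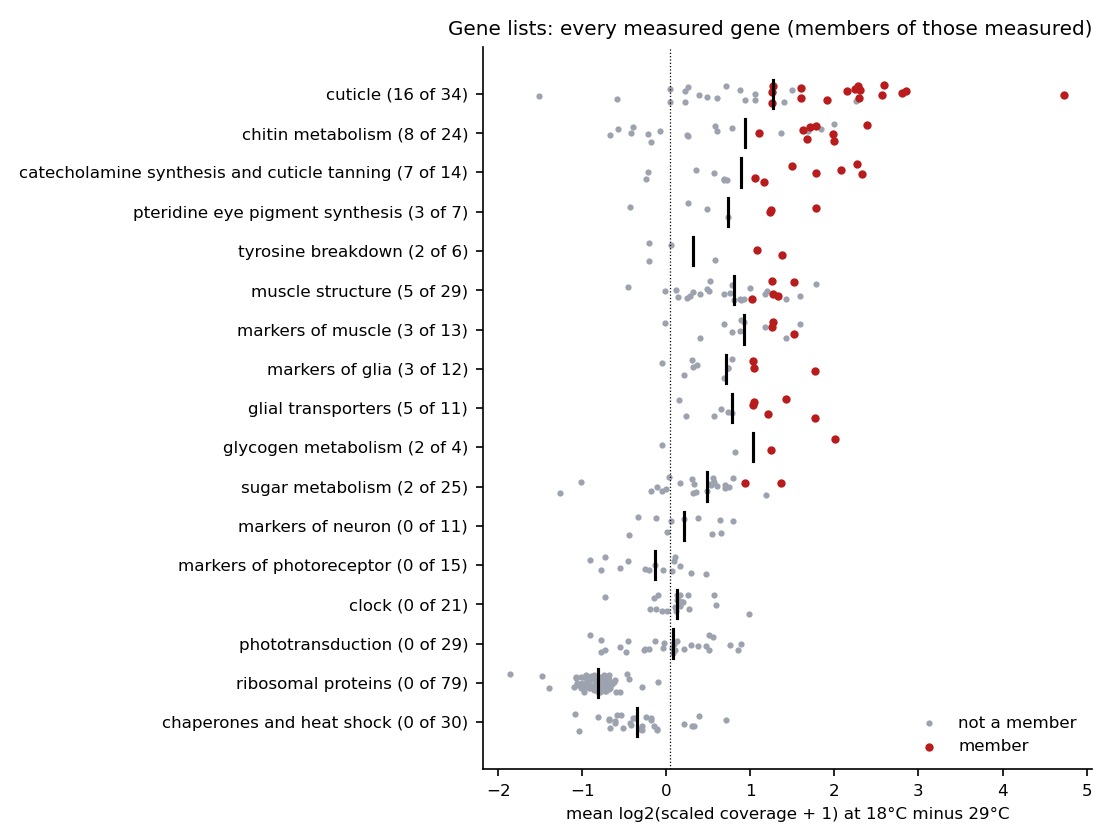
Difference between 18°C and 29°C, as means of log2(scaled coverage + 1), for every measured gene of 17 lists. Red points are members, bars the list medians and the dotted line the median of all genes (0.05); cuticle genes reach from -1.52 to 4.73, and all 79 ribosomal protein genes lie below 0.

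Stores of glycogen were represented by the enzymes that build and consume its branches. Glyp, glycogen phosphorylase, was at 831, 803 and 523 at 18°C, 428 and 430.3 at 25°C, and 277, 291 and 321 at 29°C. AGBE, the branching enzyme, was at 308, 266 and 178 at 18°C, 138 and 93.0 at 25°C, and 62.4, 52.4 and 67.0 at 29°C. Both were members of a list of 4 measured genes drawn up after values were seen, and in both the library from 18°C at ZT23 was the lowest at that temperature. Gpdh1, the glycerol-3-phosphate dehydrogenase of the cytosol, and Ldh, lactate dehydrogenase, were the 2 members among 25 measured genes of sugar metabolism, with differences of 1.06 and 1.36, and that list had a median of 0.48. Most glycolytic enzymes had small steps, as with Gapdh2 (0.16 and 0.45), Tpi (0.23 and 0.12) and Eno (0.19 and 0.34).

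Of 8 measured genes of purine synthesis, also listed after values were seen, 2 were members. Prps, which makes phosphoribosyl pyrophosphate, was at 260.2, 174 and 234 at 18°C, 168 and 152 at 25°C, and 86.2, 94.1 and 153 at 29°C. Gart, an enzyme with several activities in the pathway, was at 73.1, 46.7 and 58.2 at 18°C, 39.1 and 36.3 at 25°C, and 21.7, 18.7 and 44.6 at 29°C. Both were higher at ZT23 than at the other times at 29°C, and Gart then nearly reached its lowest value at 18°C. mdy, which makes triglycerides as a diacylglycerol acyltransferase, was the single member among 35 measured lipid genes (difference 0.94), and yip2, a thiolase of fatty acid oxidation, differed by 1.24.

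Single members came from several other kinds of enzymes and inhibitors. Cys, a cystatin-like inhibitor of cysteine proteases, was at 1529, 1350 and 1553 at 18°C, 1059 and 1112 at 25°C, and 674, 782 and 859 at 29°C, with no overlap between temperatures. Ho, heme oxygenase, which opens the heme ring, was at 113, 122 and 64.1 at 18°C, 39.8 and 32.8 at 25°C, and 21.01, 32.3 and 18.3 at 29°C. Akr1B, an aldo-keto reductase, was at 319, 238 and 216 at 18°C, 193 and 164 at 25°C, and 94.6, 102 and 132 at 29°C. No temperatures overlapped in either, although for Ho the ranges at 25°C and 29°C nearly met. GstE13 and GstE14, glutathione transferases, were 2 members among 27 measured transferases and differed by 1.23 and 1.41, and Cyp4d8 was the only member of 42 measured cytochrome P450 genes (1.07), close to the 2.48% of all genes.

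Of 3 measured genes with a Prx6 symbol (peroxiredoxin 6, listed after values were seen), Prx6b and Prx6c were members with differences of 1.57 and 1.98. Prx6a had a difference of -0.11. CG12896, in 1 run of neighbours with Prx6b and Prx6c on 2R, was a further member and differed by 1.78. Its coding length of 660 bases and its 4 exons are the same as for Prx6b and Prx6c. Prx6b and Prx6c are similar copies, so that coverage could be divided between them. Whether coverage is also shared with CG12896 was not tested. Oatp74D, the importer of the steroid hormone ecdysone, was at 14.9, 16.5 and 15.8 at 18°C, 10.2 and 11.8 at 25°C, and 7.44, 7.32 and 7.76 at 29°C. Among members of other kinds, the tetraspanins Tsp5D and Tsp42Ei differed by 1.15 and 1.06, the ninjurins NijA and NijC, adhesion proteins of the cell surface, by 1.05 and 1.64, the lysyl oxidase Loxl2 by 1.07, and the secreted protein slf, needed for the layers of the cuticle to adhere, by 1.26. TP53INP and CG6329, both among the 25 most abundant members, differed by 0.96 and 1.21. Lists for odorant-binding proteins (Obp83g, 1 of 24 measured), extracellular matrix (Mmp1, 1 of 18) and neuropeptides (Nplp3, 1 of 25) had 1 member each.

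A few members owed their mean at 18°C largely to 1 library. In 5 members the level at 18°C and ZT3 was at least 2 times that in each of the other libraries at 18°C: ple, Mmp1, CG17298, hid and CG5697. Mmp1, a matrix metalloprotease, was at 90.3, 29.4 and 43.4 at 18°C, 25.3 and 14.02 at 25°C, and 17.1, 14.4 and 10.002 at 29°C. hid, an inducer of apoptosis, was at 30.8, 13.7 and 11.8 at 18°C, 8.63 and 8.55 at 25°C, and 4.51, 5.46 and 3.97 at 29°C. CG17298 was at 130.4, 21.2 and 33.4 at 18°C, 32.7 and 4.44 at 25°C, and 12.6, 7.80 and 0.0953 at 29°C, so that its libraries from 18°C at ZT15 and 25°C at ZT3 were in the reverse of the rule's order. In 9 other members, among them stw, Cpr62Bc, Ccp84Ab, Cpr64Aa and Peritrophin-A, the library from 18°C at ZT23 was at most 0.5 times each other library at 18°C.

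The 5 genes on chromosome 4, the small and largely heterochromatic chromosome, were 7.04% of the 71 genes measured there, against 1.86% on X to 3.47% on 3L for the other arms. They were PMCA, a calcium pump of the plasma membrane, Gat, PlexA, a semaphorin receptor, pan, the TCF factor of Wnt signalling, and CG33978. PMCA was at 134, 140.3 and 106 at 18°C, 75.3 and 91.8 at 25°C, and 55.6, 68.6 and 40.0 at 29°C. PlexA was at 22.9, 25.3 and 17.1 at 18°C, 11.0 and 20.02 at 25°C, and 11.7, 16.4 and 6.32 at 29°C. In all 5 the library from 29°C at ZT23 was the lowest of all, and in PlexA and pan the library from 25°C at ZT3 was far below that from 25°C at ZT15.

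The other genes of chromosome 4 were shifted in the same direction. Of the other 66 genes measured on chromosome 4, 65 were higher at 18°C than at 29°C, with a median difference of 0.59, against 3453 of 6460 non-members elsewhere and a median of 0.03. Their median deviation from each gene's mean was 0.32, 0.46 and 0.046 at 18°C (ZT3, ZT15 and ZT23), -0.089 and 0.24 at 25°C, and -0.25, -0.023 and -0.71 at 29°C. In these medians all libraries at 18°C thus lay above all at 29°C, and 25°C overlapped both. Gene by gene, every library at 29°C lay below every one at 18°C in 34 of the 66, against 1690 of the 6460 elsewhere. Over the other scalings, filters and pseudocounts and with each library left out, 64 to 70 of the 71 genes of the chromosome were higher at 18°C, with a median of 0.43 to 0.78. This pattern was noticed after the values were seen, and no test was made of it.

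**Figure D5:**
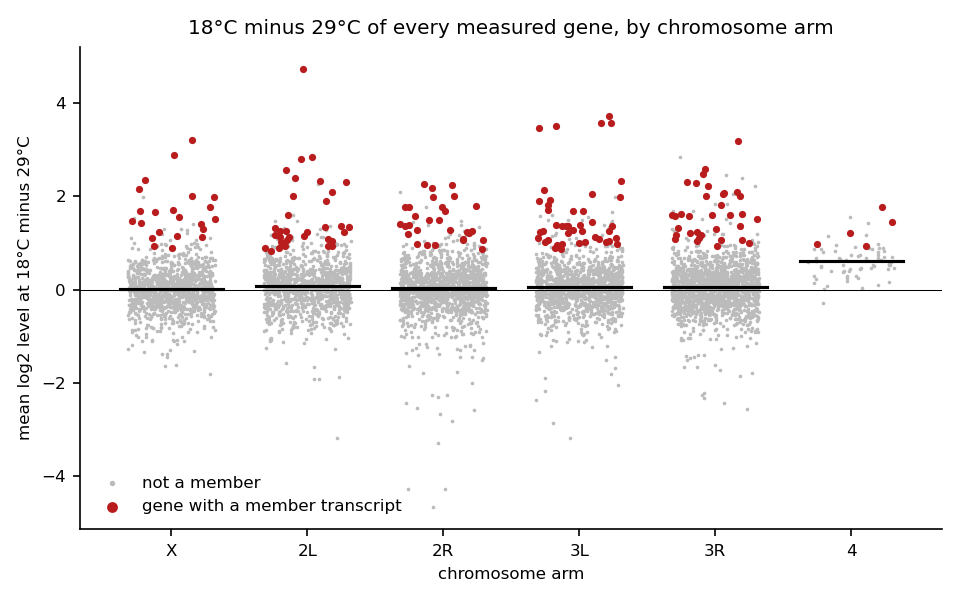
Difference between 18°C and 29°C, as means of log2(scaled coverage + 1), for the highest transcript of each measured gene, by chromosome arm. Bars are medians, which lie between 0.013 and 0.079 on the large arms and at 0.61 on chromosome 4; red points are genes with a member transcript.

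Members were also found next to each other. In the RefSeq gene order (Release 6 plus ISO1 MT), 24 members lay in 10 runs in which at most 2 genes separated neighbouring members. Besides those named above, the runs were Gasp with Obp83g and CG10553 with CG10560 on 3R, and pot with Sclp on X. pot encodes a zona pellucida domain protein that ties the epidermis to the cuticle. CG10553 was at 44.5, 62.6 and 39.9 at 18°C, 25.5 and 30.4 at 25°C, and 5.94, 11.7 and 12.2 at 29°C. CG10560 was at 60.7, 58.0 and 51.0 at 18°C, 44.9 and 39.0 at 25°C, and 15.9, 17.3 and 13.3 at 29°C. Both had a larger warm step (1.45 and 1.38) than cold step (0.77 and 0.42).

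Other transcripts of the same genes mostly shared the pattern, as far as they can be told apart when coverage is averaged over exons that transcripts share. In 62 member genes, 133 further transcripts had a mean of at least 5, of which 86 met the rule, 124 had both steps above 0 and 0 were lower at 18°C than at 29°C. Their median difference was 1.11. In 12 genes no other transcript met the rule: Prm, TP53INP, CG6329, Gasp, Gs1l, PRL-1, how, Mmp1, gfzf, PlexA, pan and sona. In pan, the more abundant transcripts had cold steps of 1.07 to 1.10 and warm steps of -0.13 to 0.030. Its member transcript, CG34403-RI, had steps of 0.66 and 0.42. In gfzf, the less abundant transcript CG33546-RB had steps of 0.66 and -0.28, against 0.92 and 0.40 for the member CG33546-RD. For how, the transcript CG10293-RB had steps of 0.83 and 0.013, against 0.61 and 0.45 for the member CG10293-RC.

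In the BDGP6 annotation, members had a median coding length of 1164 bases and a median of 4 exons, against 1433 bases and 4 exons for the genes measured. Coding sequences under 900 bases were found in 37.7% of members and 27.7% of all genes. Genes meeting the mirrored rule were shorter, with a median of 573 bases. Exons of 53 members (31.7%) overlap those of another gene, against 39.5% of all genes, and for these coverage of both genes may be mixed.

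Time of day was not a term of the rule, but it was not independent of the choice of members. The means at 18°C and 29°C included ZT23, and the mean at the middle temperature did not. A lower level at ZT23 thus made the warm step larger and the cold step smaller. With time point as a block in the rule, 120 of the 167 stayed members. The demand that 18°C and 29°C do not overlap, in turn, keeps out transcripts with large changes over the day. The counts by time of day therefore only describe the set. At 18°C the library from ZT23 was the lowest for 131 of the 167 members (39.2% of all transcripts) and that from ZT3 the highest for 97 (15.9%). At 29°C the library from ZT15 was the highest for 107, near the 60.1% of all transcripts. The median deviation of the members from their mean at 18°C was 0.19, 0.079 and -0.25 at ZT3, ZT15 and ZT23, against -0.044, 0.061 and -0.015 for all transcripts. The median difference between 18°C and 29°C was 1.69 at ZT3, 1.30 at ZT15 and 1.26 at ZT23.

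In limma fits of temperature and time of day over all 8 libraries, with Benjamini-Hochberg adjustment over 12577 transcripts, no member passed an adjusted p of 0.05 for ZT15 against ZT3, where 5 transcripts in all (0.0398%) passed, or for ZT23 against ZT3, where 0 (0%) did. At an unadjusted p under 0.05 there were 34 and 42 of the 167 members, against 28% and 17.4% of all transcripts. Between ZT23 and ZT15, 14 members (8.38%) were lower at ZT23 and none higher, against 3.39% lower and 0.374% higher among all transcripts. The median of the members was -0.27 against -0.12 over all transcripts, and 139 of 167 members were below 0, against 71.8% of all transcripts. limma with its trend option also called 14. Without the library from 18°C at ZT15, 8 members were lower at ZT23 and 2 higher, so calls in the other direction also occurred. Because values at ZT23 entered the steps that chose the members, these counts are not independent of the choice. A lower level at ZT23 enlarges the warm step, the direction of most of these calls. The counts therefore cannot show whether members change over the day more than other transcripts do.

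The 14 were CG13796, CG41520, Osi9, CG3513, stw, drd, Gat, CG12896, PMCA, PlexA, CG33978, CG5853, CG7720 and Pxd. CG13796 had a log2 difference of -1.13 (ZT23 minus ZT15, SE 0.14, limma adjusted p = 0.0196) and was lower at ZT23 in both temperatures with a library at that time. stw had a log2 difference of -1.04 (SE 0.18, limma adjusted p = 0.0316) and Gat one of -0.91 (SE 0.16, limma adjusted p = 0.0332). Of the 5 members on chromosome 4, 4 are among the 14. These calls rest on few libraries: the count was 0 when any one of 18°C ZT23, 25°C ZT3, 25°C ZT15, 29°C ZT15 or 29°C ZT23 was left out, with smallest adjusted p-values of the members between 0.052 and 0.17, and 0 with a filter at a mean of 1 or with none.

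Several lists held no member. There were 0 members among 21 clock genes (median difference 0.13), 29 phototransduction genes (0.078), 54 ion channels (0.20), 69 genes of the respiratory chain (0.15), 30 chaperones (-0.35) and 12 fat body markers (-0.067), and for lists of these sizes 0 is not far from the 2.48% of all genes. None of the 79 measured ribosomal protein genes was a member, all 79 were lower at 18°C than at 29°C with a median of -0.81 (77 after quantile normalization), and 25 met the mirrored rule. With 75th percentile scaling the small median differences of the clock, phototransduction and respiratory chain lists turned to -0.066, -0.12 and -0.053. In all, 62 of the 167 members belong to at least 1 of the lists, and 62 are named only by a CG number.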

How the data were processed

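PolyA+ RNA of whole heads was sequenced as paired ends, 1 library per temperature and time point (8 libraries). The values deposited by the authors are a signal: read coverage per base pair, averaged over each annotated transcript. The submitters' processing notes name TopHat, Bowtie2, Cufflinks and the build dm3, and the roles of these tools, any scaling and the use of strand are not given in the sources used here. The values are not counts, so depth is unknown, no counting error is given and precision rests on the spread between libraries. A further 56 columns without a name, with values in 99 rows and none of them a member's, were not used.

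Coverage was rescaled so that every library summed to 1000000, levels were taken as log2(scaled + 1), and fold changes on this scale understate those of low transcripts. Transcripts with a mean of at least 5 were kept. Groups were taken from the temperature labels. The sources used here do not state how many flies or separate collections stand behind a library, so p-values measure only the spread between these libraries. Since the temperature differences chose the members, only time of day was tested. This test was not independent of the choice either, as the last time point had no library at the middle temperature. The fits used limma 3.58.1 (R 4.3.3), temperature and time of day as additive terms, and Benjamini-Hochberg adjustment at 0.05. In these fits temperature was the block. The time point, which the labels give, served as a block only in an alternative form of the rule that chose the members. The scripts were tested on simulated data. Symbols were matched for 11356 of 11500 genes through FlyBase annotation numbers, gene order and chromosomes were read from RefSeq (Release 6 plus ISO1 MT), and gene structure from Ensembl BDGP6. As these builds differ from dm3, no coordinates and no sequences are given. Alternatives were pseudocounts of 0.1 and 5, a minimum mean of 1 or none, 75th percentile scaling, quantile normalization and limma's trend option. Further ones were a time block in the rule, fits without the temperature block, and each library left out in turn.

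The members and the gene lists were chosen with earlier results of these data known. The genes named are the 25 members with the highest mean, the 20 with the largest difference between 18°C and 29°C, up to 10 with the smallest p in each time contrast with an adjusted p under 0.05, the 3 nearest the threshold on either side, and members of the gene lists. Lists for tyrosine breakdown, catecholamine synthesis and tanning, pteridines, glycogen, purines and glial transporters, and other genes named, were added after values had been seen. Analyses used Python 3.11.15 and plots matplotlib 3.10.9.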

Additional observations from a re-analysis of the deposited data

How the results depend on the processing

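The 167 members were 102 with a pseudocount of 5 (all 102 among the 167) and 105 with scaling to the 75th percentile (96 among the 167). With 75th percentile scaling the 167 had a median difference between 18°C and 29°C of 1.18 and a lowest of 0.63, against 1.37 and 0.83 in the main scaling. As the rule had set these differences, their sign is no separate result. That scaling moved the median of all transcripts between 18°C and 25°C from 0.17 to -0.052. Quantile normalization gave 135 (105 among the 167). The lower pseudocount, a lower filter and none gave 186 to 196, which included all 167, and leaving out 1 library gave 143 to 217, the most without 29°C ZT15 (157 shared). A replicate block on time point gave 144, of which 120 were among the 167.

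For ZT23 against ZT15 the 14 member calls became 0 with a minimum mean of 1 and 0 with no filter, 5 with 75th percentile scaling, 1 after quantile normalization and 0 with no replicate block (no temperature term). Leaving out 1 library gave 0 to 18. For ZT15 against ZT3, 75th percentile scaling gave 1 call, and leaving out 1 library 0 to 3. For ZT23 against ZT3 the range was 0 to 3. In both the 3 calls came without 29°C ZT15. The cause of these changes was not tested. For the 10 members with the smallest p between ZT23 and ZT15 the direction was the same under all 16 alternatives, 4 to 8 of which left each below 0.05, and adjusted p-values ran from 0.0151 to 1.00. Depth is unknown, and a temperature has 2 or 3 libraries from different times of day, so values near the pseudocount and members close to the threshold of 0.4 are the least certain.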
